A study of Mus musculus with 6 samples.

Results

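The sites described here lie on mouse chromosome 4 from 147000000 to its end, in a stretch searched up to 157000000 (build GRCm38). They were chosen from the 6 lists of all variants as sites that were called in both tissues of at least 1 animal. The rule left 277 sites, 0.356% of the 77823 sites that met the same condition over the whole genome. They were separated by mapping quality (MQ), with 176 sites at MQ 30 or above and 101 below, the MQ of a site being its median over the samples that list it. Because the rule used the calls and the MQ, the numbers of sites and their MQ are given as a description.

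The DNA came from whole bone marrow and from an ear of each of 3 C57BL/6 mice and was sequenced after exome capture. The animals are numbered 54 and 108 (males) and 136 (female). Every animal carried the P95H change of Srsf2 (Srsf2P95H/+ in the design text), an SR-family splicing factor, had received tamoxifen in vivo, and was sampled 50 to 60 weeks later when moribund. The sample labels give the tamoxifen-inducible R26CreERT2 driver to all 3 animals, a Cre expressed from a locus that is active in most cell types. The design text instead gives 1 of the 3 an hScl-CreERT driver, active in blood stem and progenitor cells, with an R26eYFP reporter, so the driver entered no comparison. There was no wild-type animal, so every comparison is between bone marrow and ear of 1 animal, between classes of sites, or between this chromosome end and the rest of the genome. Whole marrow is a mixture of cell types, and a variant read fraction averages over them.

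Mapping quality is the aligner's estimate of how surely a read belongs at 1 place, and reads that fit several near-identical copies receive low values. The distal end of mouse chromosome 4 carries such copies. A cluster of KRAB zinc finger genes, whose proteins bind DNA and mostly repress transcription of transposable elements, lies beside relics of vomeronasal type 2 receptor genes, the pheromone receptors of the vomeronasal organ. Between the cluster and the telomere runs a long stretch of mostly single-copy genes, among them Mtor, Casz1, Trp73, Per3 and several TNF receptor family members.

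The promoter windows of RefSeq show the copies directly, and a pair from each end of the stretch is printed because most of the sites lie in the clusters at the 2 ends. Zfp979, which the files call 2610305D13Rik, and Rex2 lie in the zinc finger cluster and are identical at 98.639% of 294 bases, with 4 substitutions. Vmn2r129, whose span holds sites that the files assign to Vmn2r-ps159, and Vmn2r121 on chromosome X are identical at 95% of the aligned bases, with 13 substitutions and 2 gap positions. The windows are chr4:147642465-147642758 (minus strand), chr4:147021606-147021899 (plus strand), chr4:156330855-156331152 (plus strand) and chrX:124135861-124136160 (minus strand), RefSeq GRCm38.p6, written 5′ to 3′ on the strand of the gene. Capitals mark bases that differ from the other member of the pair.
Zfp979: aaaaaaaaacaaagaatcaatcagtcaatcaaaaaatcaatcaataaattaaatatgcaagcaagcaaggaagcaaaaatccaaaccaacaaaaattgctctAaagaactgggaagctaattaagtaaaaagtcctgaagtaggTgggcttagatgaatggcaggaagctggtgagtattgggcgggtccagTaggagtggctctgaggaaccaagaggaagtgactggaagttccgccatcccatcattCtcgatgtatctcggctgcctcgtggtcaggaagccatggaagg
Rex2: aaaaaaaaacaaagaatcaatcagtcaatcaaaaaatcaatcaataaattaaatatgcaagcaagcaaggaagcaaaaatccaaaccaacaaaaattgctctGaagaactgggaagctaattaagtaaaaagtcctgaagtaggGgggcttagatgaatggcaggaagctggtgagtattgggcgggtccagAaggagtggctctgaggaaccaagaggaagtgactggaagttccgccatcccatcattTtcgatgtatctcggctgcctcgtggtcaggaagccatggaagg
Vmn2r129: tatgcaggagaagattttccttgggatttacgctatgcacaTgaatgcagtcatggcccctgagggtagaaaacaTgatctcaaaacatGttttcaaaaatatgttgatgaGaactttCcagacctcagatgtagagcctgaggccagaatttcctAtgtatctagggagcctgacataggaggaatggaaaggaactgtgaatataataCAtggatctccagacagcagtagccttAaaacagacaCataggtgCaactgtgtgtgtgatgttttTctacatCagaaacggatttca
Vmn2r121: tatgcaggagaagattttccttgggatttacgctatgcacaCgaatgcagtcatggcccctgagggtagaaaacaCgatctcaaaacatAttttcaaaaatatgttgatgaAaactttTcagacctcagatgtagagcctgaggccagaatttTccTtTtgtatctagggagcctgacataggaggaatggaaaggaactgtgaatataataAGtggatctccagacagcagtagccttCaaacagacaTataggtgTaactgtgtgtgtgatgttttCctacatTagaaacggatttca

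Of the 253 RefSeq promoter windows in the stretch, 10 (3.95%) had another promoter of at least 90% identity over at least 200 bases. By location, 8 of 21 windows from 147 to 148 Mb did so (38.1%), against 1 of 208 from 148 to 156 Mb (0.481%) and 1 of 24 beyond 156 Mb (4.17%). In the rest of the genome the count was 2266 of 32598 windows (6.95%). Only the part from 147 to 148 Mb had a share above that. The promoter of Zfp982 had such a match with 6 other promoters and that of Zfp985 with 2. The promoter closest to that of Zfp982 was that of Zfp600, 93.1% identical over 261 bases. None of these windows at the 2 ends held a member site.

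The 277 sites did not fill the stretch evenly. From 147 to 148 Mb there were 125 sites, which spanned 826 kb, and beyond 156 Mb there were 93 sites. The 8 Mb between them held 59. Per RefSeq protein-coding gene this was 8.33 sites, 0.454 sites and 7.15 sites in these 3 stretches in map order. The stretch as a whole held 1.74 sites per coding gene, against 3.57 in the rest of the genome, over all animals together. Per animal the order differed. The stretch held 1.20, 1.32 and 1.18 sites per coding gene in animals 54, 108 and 136, against 1.497, 2.29 and 0.532 in the rest of the genome. It was thus richer in sites than the rest in animal 136 and poorer in animals 54 and 108. These limits at 148 and 156 Mb were set after the positions had been seen and are used for description only.

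**Figure D1:**
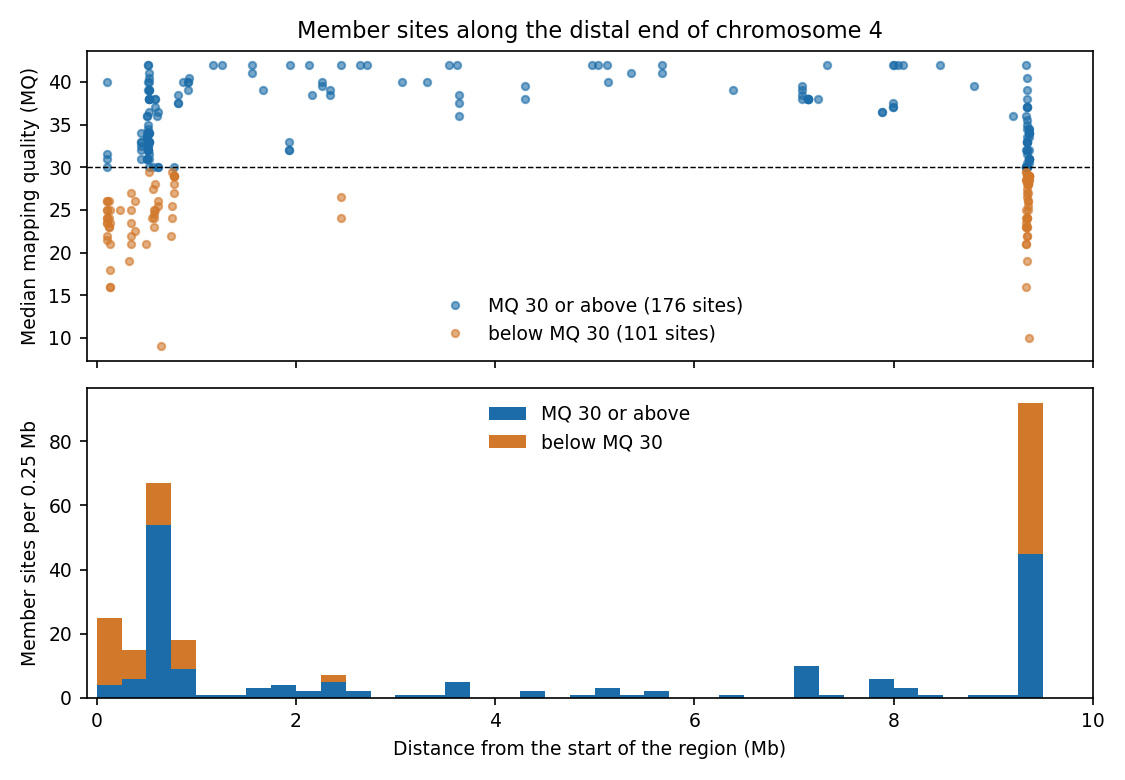
Median mapping quality of each of the 277 sites (upper panel) and number of sites per 0.25 Mb (lower panel) against distance from the start of the region, in Mb. Blue marks sites at MQ 30 or above and orange sites below 30. The orange sites sit almost wholly in the clusters at the 2 ends, and 57 of the 59 sites between them are blue.

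Nearly all low-MQ sites were in the 2 end clusters, with 52 from 147 to 148 Mb, 47 beyond 156 Mb and 2 between. Both exceptions were adjacent bases in Trmt112-ps2, a pseudogene copy of a methyltransferase activator gene. Here 63.5% of sites had an MQ of 30 or above, against 95.2% in the rest of the genome. The limit was not a sharp border: 48 of the 277 sites were at or above 30 in some samples and below it in others. At its edge, 18 sites had a median MQ from 30 to below 31 and a median variant fraction of 42.0%, and 17 sites from 29 to below 30 had one of 46.3%. On the map, the first site inside lay at 147102235 (MQ 40) and the last outside at 146894085 (MQ 22.5). The Mb just inside the start held 125 sites and the Mb just outside 64, of which 58.4% and 48.4% had an MQ of at least 30.

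The number of members was similar in the 3 animals. Animal 54 contributed 191 sites, animal 108 210 and animal 136 187, while the same rule over the whole genome gave 32732, 49978 and 11755 sites in these animals. The chromosome end therefore made up 0.584%, 0.420% and 1.59% of the sites of animals 54, 108 and 136. Of the 277 sites, 130 were called in both tissues of all 3 animals (46.9%, 95% Clopper-Pearson interval 40.9% to 53.0%), against 5.87% of the sites in the rest of the genome. The share was 45.6% from 147 to 148 Mb, 23.7% from 148 to 156 Mb and 63.4% beyond 156 Mb. Counting any list, 214 sites appeared in all 3 animals, 52 in 2 animals and 11 in 1 animal alone. The intervals cover counting error only, and neighbouring sites can lie on the same reads.

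A further 672 sites of the stretch were listed but never in both tissues of 1 animal, and 555 of them were in a single list. Of the 672, 146 lay from 147 to 148 Mb, 444 from 148 to 156 Mb and 82 beyond 156 Mb. These stretches held 15, 130 and 13 RefSeq coding genes, so per coding gene the middle held the fewest of them. In animal 54, marrow held 295 listed sites and ear 430, and 191 were shared, 64.7% of the marrow list and 44.4% of the ear list. In animal 108 the lists held 401 and 359 sites, with 52.4% of the marrow list and 58.5% of the ear list shared. In animal 136 they held 377 and 304, with shares of 49.6% and 61.5%. A list gives no depth where nothing was called, so a missing entry does not show that the variant was absent.

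Sequencing depth at the members also differed between the 3 stretches. Over the whole chromosome end the median depth of the members was 80, 96 and 90 reads in marrow of animals 54, 108 and 136, and 143, 73.5 and 74 reads in their ears. In the rest of the genome it was 41, 53 and 51 reads in marrow and 73, 44 and 41 reads in ear. All 6 samples were deeper at the chromosome end. On the log2 scale the difference was 0.87 ± 0.09 (SD, n = 3 animals), with an exact sign-flip permutation p of 0.25, the smallest that 3 animals allow. Members and the rest were not matched for MQ. At MQ 30 or above the marrow medians were 51.5, 82.5 and 81 reads, against 40, 52 and 48 in the rest of the genome. Ear medians there were 114.5, 56 and 73 reads, against 70, 43 and 39. Below MQ 30 marrow had 123, 135 and 99.5 reads, against 106, 105 and 108. Ear had 215, 97 and 92.5 reads, against 205, 89 and 92. Below MQ 30 the marrow of animal 136 was thus not deeper.

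**Figure D2:**
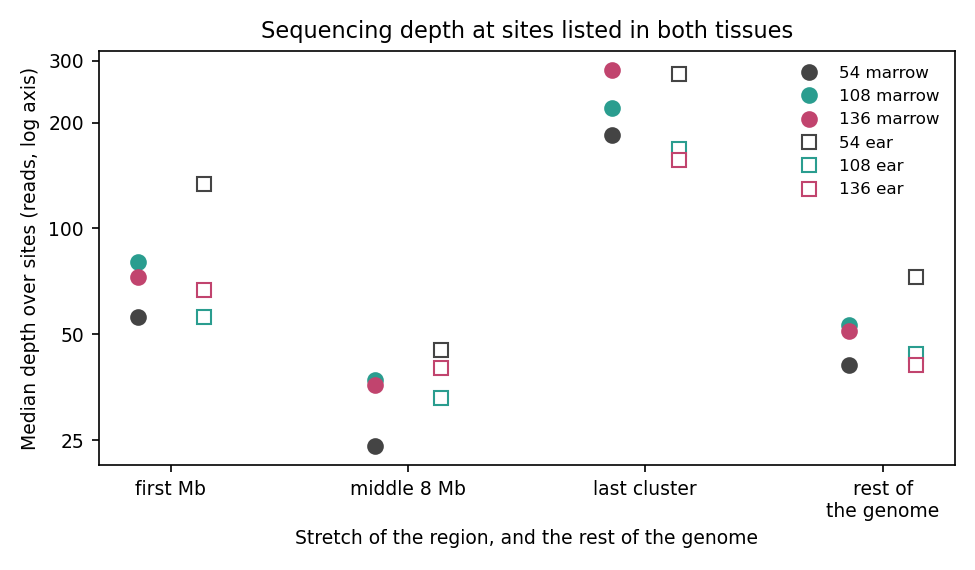
Median sequencing depth over the sites listed in both tissues (reads, log axis) in the first Mb, the middle 8 Mb and the last cluster of the chromosome end, and in the rest of the genome. Filled circles are marrow and open squares ear of each animal. Depth in the last cluster was above that of the other 3 groups in every sample, and in the middle 8 Mb it was from 24 to 45 reads, below the other 3.

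The greater depth was at the 2 ends. Beyond 156 Mb the medians were 184.5, 220 and 283 reads in marrow and 274.5, 168 and 157 reads in ear of animals 54, 108 and 136. From 148 to 156 Mb they were 24, 37 and 36 reads in marrow and 45, 33 and 40 reads in ear, below the rest of the genome in every sample. The deepest member, in the ear of animal 54, had 2261 reads, and no member from 148 to 156 Mb had more than 140.

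The kinds of change also set the chromosome end apart from the rest as a description. Of 249 single nucleotide members with 1 alternative and a known reference base, 116 were transitions (46.6%, 95% interval 40.3% to 53.0%), against 66.4% in the rest of the genome. T-to-G changes, counted with their complement, made up 33.3% of the 45 such sites from 148 to 156 Mb and 7103 of 69269 in the rest of the genome. Sites lay close together, with a median gap of 76 bases between neighbours, and 208 of the 277 sites (75.1%) had another within 100 bases.

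Some tight groups shared 1 alternative base. From 148 to 156 Mb there were 4 groups of at least 3 single nucleotide sites with gaps of at most 20 bases, and in all 4 every site had the same alternative base, G or C. They were 3 sites upstream of Casz1, 3 in an intron of Slc45a1, a sugar transporter gene, and 4 intronic plus 5 upstream sites of Trp73, a p53-family transcription factor. From 147 to 148 Mb 2 of 6 such groups did so, in Gm15951 and Plod1, both with G. Beyond 156 Mb none of 7 did so, and in the rest of the genome 783 of 3383 (23.1%) did.

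In the authors' deposited table, the SAMtools p-value for a difference in base quality between reference and variant reads was below 0.05 in 45.6% of the 182 values from 148 to 156 Mb. It was below 0.05 in 17.5% of values from 147 to 148 Mb, in 13.3% beyond 156 Mb and in 14.7% in the rest of the genome. The deposited p-value for a difference in mapping quality showed another order, below 0.05 in 78.7%, 43.4% and 80.9% of values in the 3 stretches in map order, against 54.4% in the rest of the genome. The part of these measures in the calls was not tested.

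Variant fractions, the share of reads with the variant base, were lower at MQ 30 or above than below it in each animal. At MQ 30 or above the median fraction was 39.7%, 40.05% and 42.1% in marrow of animals 54, 108 and 136, and 41.6%, 38.8% and 41.7% in ear. Below MQ 30 it was 50.0%, 47.9% and 45.1% in marrow and 47.7%, 49.2% and 50.0% in ear. Every sample had its higher median in the low-MQ class. The rest of the genome had the same order in all 6 samples. Its marrow medians were 46.2%, 47.1% and 43.75% at MQ 30 or above and 53.0%, 51.4% and 61.4% below. Its ear medians were 46.5%, 46.9% and 44.2% at MQ 30 or above and 52.1%, 51.8% and 60.7% below. By location, 57 of the 59 sites from 148 to 156 Mb were at MQ 30 or above. Median fractions there were 33.3%, 35.3% and 43.75% in marrow and 34.2%, 30.8% and 36.4% in ear. From 147 to 148 Mb they were 42.9%, 41.3% and 42.9% in marrow and 44.3%, 40.8% and 45.4% in ear. Beyond 156 Mb they were 45.8%, 47.2% and 45.9% in marrow and 46.6%, 47.3% and 47.8% in ear. The part of location in the class difference was not tested.

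**Figure D3:**
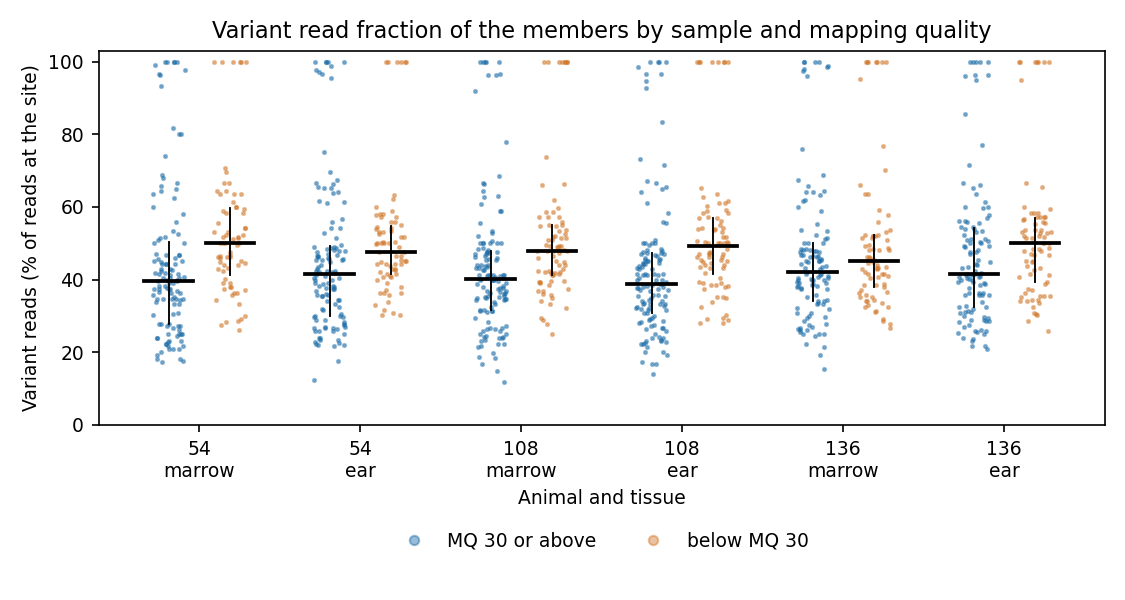
Variant reads as a percentage of reads at each site, by animal and tissue, for sites at MQ 30 or above (blue, left in each pair) and below 30 (orange). Horizontal bars are medians and vertical bars the middle 50% of sites. Medians at MQ 30 or above ran from 38.8% to 42.1% and those below MQ 30 from 45.1% to 50.0%, and a separate group of sites sits near 100% in both classes.

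The mean fraction at MQ 30 or above minus that below was -7.03, -9.07 and -4.53 percentage points in animals 54, 108 and 136. The mean of -6.88 ± 2.28 points (SD, n = 3 animals) had the same sign in 3 of 3 animals, with an exact sign-flip p of 0.25, the smallest possible here. It shrank to -3.08 points (exact p = 0.5) without the 9 sites whose reference base is N, described next, and to -0.368 points (exact p = 1) when the highest MQ of any sample set the class. In the rest of the genome the mean marrow fraction was 46.6%, 47.4% and 46.4% at MQ 30 or above and 59.6%, 59.3% and 67.7% below. The direction was thus not particular to the chromosome end.

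A run of members was listed against an unknown reference. The 9 adjacent positions chr4:156358117-156358125, downstream of Gm20782, had N as the reference base in the files, and each was called homozygous for the variant in every animal that listed it in both tissues. The first alternative base given at each position spells the following, all capitals because every base stands against an N.
Gm20782 downstream run: GGTCTATCT
Only 6 other sites of the series had such a reference. All variant reads at these 9 positions therefore differ from a placeholder and not from a known mouse base.

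Homozygous variant genotypes were also called at other members. In all, 22 members were homozygous in both tissues of at least 1 animal, of which 9 were those N positions. Another 7 lay beyond 156 Mb with a known reference base, 4 from 148 to 156 Mb and 2 from 147 to 148 Mb. With a known reference base, 10 of 184 members (5.43%) were homozygous in animal 54, 9 of 201 (4.48%) in animal 108 and 12 of 180 (6.67%) in animal 136. In the rest of the genome 3.34%, 3.21% and 9.91% of marrow sites were homozygous, counted per tissue and at any MQ. The chromosome end was thus above the rest in animals 54 and 108 and below it in animal 136.

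At MQ 30 or above the homozygous share was 9.17%, 7.69% and 9.01% in animals 54, 108 and 136, and below it was 8.45%, 10% and 11.8%. The difference of -1.47 ± 1.92 percentage points (SD, n = 3) was smaller than its spread, with an exact sign-flip p of 0.5. It turned to 5.70 points (exact p = 0.25) among sites with a known reference base. Set against the rest of the genome at the same MQ, where the share was 1.99%, 2.01% and 6.21%, the chromosome end was higher by 5.22 ± 2.22 points in 3 of 3 animals (exact sign-flip p = 0.25). That difference was 4.25 points among known reference bases and 8.31 points when the highest MQ of any sample set the class. Below MQ 30 the order was the reverse, though this was not tested. There, 20%, 22.4% and 39.4% of marrow sites in the rest of the genome were homozygous, counted per tissue. At the chromosome end it was 8.45%, 10% and 11.8% of marrow sites below MQ 30. By location at MQ 30 or above, the share was 2.17%, 1.72% and 2.13% from 147 to 148 Mb in animals 54, 108 and 136. It was 5.56%, 3.03% and 11.5% from 148 to 156 Mb and 21.1%, 20.5% and 15.8% beyond 156 Mb. At this MQ the homozygous sites beyond 156 Mb numbered 8, 8 and 6 in animals 54, 108 and 136. All were assigned to Gm20782 and lay from 156357695 to 156358125. They made up most of the 11, 10 and 10 such sites of the chromosome end, so its higher share rested largely on a single short stretch. The share was thus highest beyond 156 Mb in each animal. From 147 to 148 Mb it lay close to the rest of the genome or below it, on 1 site per animal. That site was the insertion in Rps19-ps3 at 147821728, whose genotype call and read count disagree, as described below.

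Fractions at the deep sites varied little over the samples. Of the sites with at least 100 reads in all 6 samples and a mean fraction under 90%, 58 lay at the chromosome end and none of them from 148 to 156 Mb. Their median SD over the 6 samples was 2.91 percentage points, against a median of 2.13 points that binomial read sampling gives, a median ratio of 1.30. In the rest of the genome, over 798 sites, the median SD was 3.89 points, the binomial value 2.71 points and the median ratio 1.44. Of the 58 sites, 15 had a mean fraction below 40%, 40 between 40% and 60%, and 3 above 60%.

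By effect, 24 of the 277 sites altered a protein in the SnpEff annotation (8.66%), against 6.19% in the rest of the genome. At MQ 30 or above there were 1 HIGH and 9 MODERATE impact sites, 8 LOW and 158 MODIFIER. Below MQ 30 there were 14 MODERATE, 9 LOW and 78 MODIFIER sites and none of HIGH impact. No HIGH impact site was called in both tissues of all 3 animals. The protein-altering sites fell in 7 genes, and all but the 2 sites in Casz1 and Plch2 were in genes of the end clusters.

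The zinc finger genes held 49 members in 6 of the 11 symbols searched, of which 28 were at MQ 30 or above and 11 altered a protein. Zfp982, named Gm13152 in the files, had 21 members, all at MQ 30 or above though with a median MQ of at most 36, and 5 of them were missense. Its K169Q change at 147512692 was read at 34.6%, 36.4% and 44.4% in marrow of animals 54, 108 and 136, and at 38.7%, 30% and 48.9% in ear. Its L177P change at 147512717 was read at 38.2%, 34.6% and 50.0% in marrow and at 34.5%, 35.5% and 41.9% in ear. Marrow and ear overlapped at both, and no sample came near 0 or 100%.

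Zfp979 had the 1 HIGH impact site. Its L225* stop at 147613577 was read in 30 of 106 marrow reads and 16 of 43 ear reads of animal 108 (28.3% and 37.2%). It was also listed in the ear alone of animal 54 (37.7%) and in the marrow alone of animal 136 (28.6%). At the adjacent base, L225V was read at 26.7% in marrow and 34.9% in ear of animal 108. The 2 calls affect the same codon, which SnpEff annotated 1 base at a time. Both had a median MQ of 30, at the limit of the class.

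Zfp985, named Gm13154 in the files, had 12 members, of which 8 were below MQ 30. Its I39M change at 147581328 had a median MQ of 28 and was among the deepest members. It was read at 51.8%, 53.3% and 51.5% in marrow of animals 54, 108 and 136, over 1351, 1549 and 1475 reads. In ear it was read at 53.1%, 50.4% and 52.9%, over 2050, 1497 and 1069 reads. Its Q174R change was read at 46.5% to 51.8% over the same samples. Both therefore stayed near equal parts of variant and reference reads in 6 of 6 samples.

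Outside coding sequence, C230088H06Rik had 18 members, all below MQ 30 and in introns or upstream. Zfp991, named Gm13139 in the files, and Gm20707 had 6 members each below MQ 30, Gm13162 had 4 and Zfp984, named Gm13157, had 3. Gm13141, a pseudogene named here after its values were seen, had 18 members with 17 at MQ 30 or above. Its site at 147528193 was read at 27.8%, 26.7% and 25.1% in marrow and at 28.5%, 25.1% and 25.5% in ear of animals 54, 108 and 136. Its neighbour at 147528198 was read at 47.1%, 43.2% and 51.2% in marrow and at 43.6%, 47.8% and 47.2% in ear. Positions 5 bases apart thus kept different fractions in all 6 samples.

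The cluster beyond 156 Mb belonged almost wholly to 2 gene models. Vmn2r-ps159 had 59 members, 31 at MQ 30 or above and 28 below, of which 33 were called in both tissues of all 3 animals. Gm20782 had 33 members, 14 at MQ 30 or above and 19 below, with 26 in all 3 animals. Missense calls numbered 7 in Vmn2r-ps159 and 4 in Gm20782, and 10 of these 11 were below MQ 30.

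The exception was S394N of Vmn2r-ps159, a vomeronasal receptor model, at 156334605 with a median MQ of 30. It was read at 46.7%, 47.6% and 48.0% in marrow of animals 54, 108 and 136, and at 48.0%, 47.3% and 56.3% in ear. T317I of the same gene, with an MQ of 21, was read at 28.2%, 27.8% and 31.1% in marrow and at 30.2%, 28.8% and 30.4% in ear. V325F, 23 bases further on in the reference, was read at 52.3%, 45.9% and 49.6% in marrow and at 51.6%, 50.1% and 53.8% in ear. The order of the 2 sites was the same in 6 of 6 samples.

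In Gm20782, L300M at 156351226 was read at 53.0%, 53.5% and 52.0% in marrow and at 50.0%, 51.7% and 47.1% in ear of animals 54, 108 and 136. Q310E, Q342H and M352T of the same model were read at 40.8% to 49.4% over the 6 samples. These sites had 534 to 1473 reads per sample, several times the depth of the middle stretch.

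The middle stretch held 59 members, and 57 were at MQ 30 or above. Casz1, a zinc finger transcription factor of the castor family, had a protein-altering site that was called in both tissues of animals 108 and 136. Its L1087P change at 148944359 had a median MQ of 42. In animal 136 it was read in all 115 marrow reads and all 89 ear reads. In animal 108 it was read in 57 of 138 marrow reads (41.3%, 95% interval 33.0% to 50.0%) and 59 of 135 ear reads (43.7%). It was in neither list of animal 54. The fraction thus differed between animals far more than between the tissues of an animal.

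Plch2, a phospholipase C gene, had the other protein-altering site of the middle stretch. Its R570G change at 154998254 was read in 4 of 5 marrow and 18 of 24 ear reads of animal 54 and in 6 of 10 marrow and 2 of 3 ear reads of animal 136, and in the marrow alone of animal 108. The depth is too low to place its fraction more closely.

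Other single sites of the middle are named after their values were seen. The site at 155093173, downstream of Morn1, was read at 51.6% in marrow (95 reads) and 52.8% in ear (123 reads) of animal 54 and was in no list of the other two. The site at 155002691, near Plch2, was read at 41.1% in marrow and 65.0% in ear of animal 108 alone. An inserted base in the 3' UTR of Gm10564 at 155044246 was read in every one of 44, 99 and 57 marrow reads and 100, 41 and 33 ear reads of animals 54, 108 and 136. Over the middle stretch, 7 of 59 members were listed in 1 animal alone, against 3 of 125 and 1 of 93 in the clusters before and after it.

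Insertions and deletions made up 21 members (7.58%), a smaller share than the 10.7% in the rest of the genome. Of these, 14 were among the 59 members of the middle. There, 11 of the 14 were gains or losses in runs of a repeated pair of bases, which is why 2 of them are shown. In an intron of Rere, a nuclear receptor corepressor gene, the reference allele of 20 bases at chr4:150534721-150534740 stood against a variant of 18. Capitals mark the pair that the variant lacks, written at the end of the run since its place within it is arbitrary.
Rere reference: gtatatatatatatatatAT
Rere variant: gtatatatatatatatat
The shorter allele was read at 22.7%, 16.7% and 25% in marrow of animals 54, 108 and 136 and at 26.7%, 17.4% and 21.7% in ear. It was a minority of reads in all 6 samples.

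Near Mrpl20, a mitochondrial ribosomal protein gene, the variant was a pair of bases longer than the reference run of 68 bases at chr4:155806800-155806867. Capitals mark the added pair.
Mrpl20 variant: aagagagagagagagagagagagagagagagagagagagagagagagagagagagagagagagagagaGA
It was listed in animal 136 alone, in all 5 marrow and all 8 ear reads that were counted. In Rps19-ps3, a ribosomal protein pseudogene, an insertion at 147821728 was called homozygous in all 6 samples, although only 19.3% to 28.0% of the counted reads carried it. The genotype call and the read count of this insertion therefore disagree.

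A single member lay in a RefSeq promoter window. It was at 149166092 in the window of Pgd, the 6-phosphogluconate dehydrogenase of the pentose phosphate pathway, chr4:149166033-149166332 on the minus strand, RefSeq GRCm38.p6. The capital marks the site, at the end of a run of T.
Pgd: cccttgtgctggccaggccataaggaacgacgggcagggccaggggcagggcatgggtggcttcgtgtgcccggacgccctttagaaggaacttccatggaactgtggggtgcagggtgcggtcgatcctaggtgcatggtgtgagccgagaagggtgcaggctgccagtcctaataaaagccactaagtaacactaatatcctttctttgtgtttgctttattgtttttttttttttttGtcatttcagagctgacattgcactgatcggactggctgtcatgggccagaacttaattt
The variant was read at 41.7%, 22.2% and 48.4% in marrow of animals 54, 108 and 136 and at 32.0%, 33.3% and 53.3% in ear, over 15 to 31 reads. It was an intermediate fraction in all 6 samples. No member lay in any of the 9 RefSeq miRNA genes of the stretch.

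Of the gene lists drawn up for the stretch, the blood, growth and cancer list had 10 members in 5 of its 21 genes, all at MQ 30 or above. They were in Agrn, Camta1, Casz1, Chd5 and Rere, and Casz1 had the only protein-altering one. The circadian and metabolic list had the Pgd site alone. No member was in the taste receptors, the TNF receptor superfamily, the natriuretic peptide and one-carbon list or the mitochondrial list.

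The comparison of marrow with ear asked whether a site was read differently in blood-forming tissue and in the ear of the same animal. Only sites called in both tissues of the animal could enter, so a difference that left a tissue without a call could not appear. The same holds for the test over the animals and for the class means below. In animals 54, 108 and 136, 104, 191 and 190 sites of the stretch were in the marrow list alone. In the ear list alone there were 239, 149 and 117. No member passed Fisher's exact test on reads within an animal, adjusted over all sites of that animal. In animal 54, 0 of 185 members tested passed, against 0.0346% of all sites tested, and 19 had an unadjusted p under 0.05, against 8.41%. In animal 108, 0 of 205 passed, against 0.0327%, and 15 were under 0.05 unadjusted, against 7.43%. In animal 136, 0 of 182 passed, against 0.0181%, and 17 were under 0.05 unadjusted, against 6.22%. The lowest adjusted p of any member was 0.115, 0.112 and 0.230 in animals 54, 108 and 136 (Fisher's exact test, Benjamini-Hochberg).

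**Figure D4:**
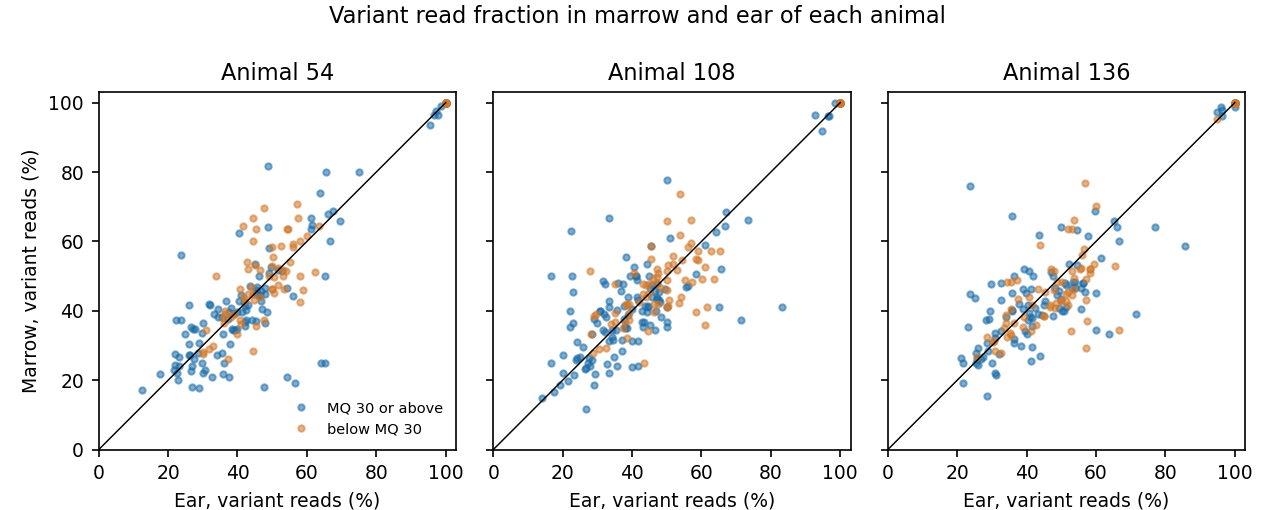
Variant reads in marrow (vertical axis, %) against ear (horizontal axis, %) at each member, one panel per animal, with the line of equality. Blue is MQ 30 or above and orange below. Points lie about the line in all 3 animals, and the median absolute difference was 3.66, 4.26 and 5.03 percentage points in animals 54, 108 and 136.

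Over the animals, 0 of the 125 members with reads in all 6 samples passed the Cochran-Mantel-Haenszel test after adjustment, against 0.0225% of all sites. At an unadjusted p under 0.05 there were 12 of 125 (9.60%), against 8.06% of all sites, 7 higher and 5 lower in marrow. The lowest adjusted p was 0.184, shared by 2 intronic sites of C230088H06Rik. At 147103202 the marrow fraction was 70.8%, 66.3% and 76.8% in animals 54, 108 and 136, against 57.1%, 57.0% and 56.8% in ear. At 147103610 it was 42.5%, 39.6% and 43.2% in marrow, against 57.9%, 58.5% and 57.1% in ear. The tissues did not overlap at either site, though neither difference passed the test over all sites, and the differences had opposite signs.

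At an intron site of Trp73 the tissues differed in opposite directions in 2 animals, in neither past the test. At 154081595, the variant was read in 34 of 54 marrow reads against 9 of 40 ear reads of animal 108, and in 10 of 40 marrow reads against 28 of 43 ear reads of animal 54. The unadjusted p was 0.000139 and 0.000372 and the adjusted p 0.112 and 0.130 (Fisher's exact test). In animal 136 the site was read at 37.8% in marrow and 29.03% in ear.

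Taken as classes, the sites differed between tissues by less than the animals differed among themselves. At MQ 30 or above the mean marrow minus ear fraction was -0.848, 0.473 and -0.654 percentage points in animals 54, 108 and 136, a mean of -0.343 ± 0.714 points (SD, n = 3, exact sign-flip p = 0.5). Below MQ 30 it was 1.40, -0.568 and -1.92 points, a mean of -0.360 ± 1.67 points (exact sign-flip p = 0.75). The sign was not the same in all 3 animals in either class.

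The authors' somatic lists, each of which sets marrow against ear of 1 animal, named few of these sites. VarScan2 had 74 somatic calls in the stretch, 27 in animal 54, 26 in animal 108 and 21 in animal 136, besides 4 calls of loss of heterozygosity. The 74 were 2.26% of its 3272 somatic calls over the genome. Of the 74, 35 lay from 147 to 148 Mb, 12 from 148 to 156 Mb and 27 beyond 156 Mb. Strelka had 43, with 17, 13 and 13 in these animals, of which 4, 36 and 3 lay in the same stretches. The 43 were 0.651% of its 6603 calls over the genome. For comparison, the chromosome end held 0.726% of RefSeq coding genes and 0.356% of the sites called in both tissues of an animal. At the position of a member there were 9 of the VarScan2 calls and 0 of the Strelka calls.

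**Figure D5:**
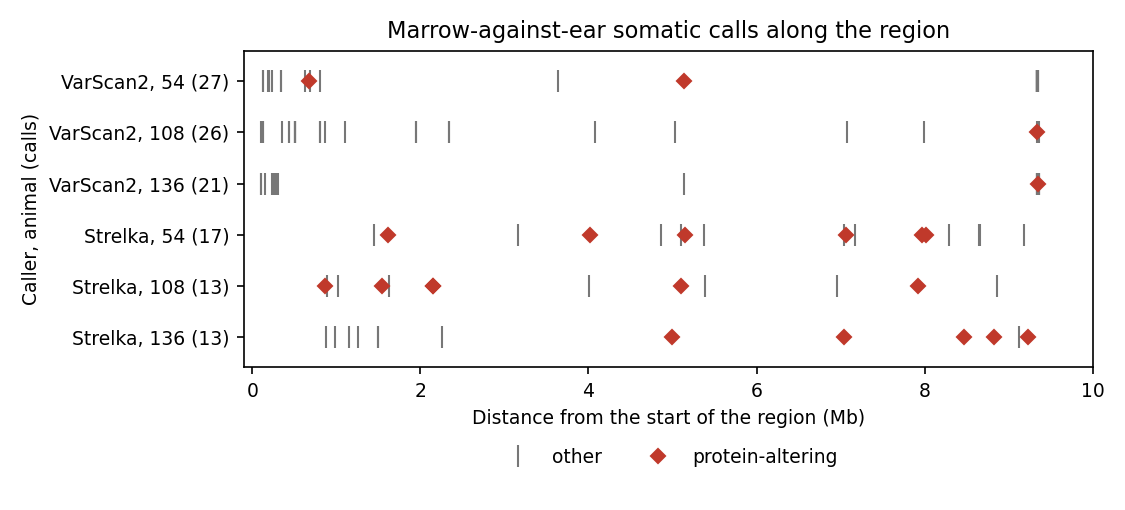
Somatic calls of marrow against ear by caller and animal, against distance from the start of the region in Mb. Diamonds are protein-altering calls and ticks the others, with the number of calls in brackets. VarScan2 calls crowd at both ends and Strelka calls lie mostly between them.

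The VarScan2 calls were seldom absent from ear. Of the 74, 7 had no variant read in ear, and the median variant fraction was 27.5% in marrow and 13.2% in ear. The 4 protein-altering ones were in Zfp534, Espn, Vmn2r-ps159 and Gm20782. E213K of Zfp534 had 27 of 122 marrow reads and 46 of 334 ear reads in animal 54, and T448P of Espn, an actin-bundling protein gene, had 8 of 35 and 4 of 51 in the same animal. I614T of Vmn2r-ps159 had 348 of 1627 marrow and 239 of 1337 ear reads in animal 108, and D206E of Gm20782 had 195 of 943 and 105 of 693 in animal 136. All 4 were read in ear as well. The authors' deposited table gives them p-values of 0.0242, 0.0498, 0.00946 and 0.00249, as deposited.

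Strelka's 17 protein-altering calls fell outside the zinc finger and vomeronasal receptor genes, with no read counts in the deposited lists. In animal 108 they were W91R of Miip, S2221R of Mtor, a growth-controlling kinase, A426S and K261E of Pgd, the Y349* stop of Plekhg5, and A163T of the TNF receptor family member Tnfrsf14. In animal 54 they were P452T of Masp2, a complement protease, L607M of the clock gene Per3, D33N of Espn, Q430H of Trp73, E206D of Pank4 and P4S of Plch2. In animal 136 they were A37T of Phf13, L123F of Ccdc27, R772Q of C030017K20Rik, A433V of the cyclin Ccnl2 and V154M of Klhl17. Of the gene lists, the circadian and metabolic list had 3 of these calls (Per3 and both of Pgd), and the TNF receptor, mitochondrial and blood, growth and cancer lists had 1 each (Tnfrsf14, Pank4 and Mtor). No gene had such a call in more than 1 animal.

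The qualities in the authors' deposited table ran from 15 to 84 over the 43 Strelka calls, with a median of 21. Among the protein-altering calls, A37T of Phf13 had the highest at 69, followed by A163T of Tnfrsf14 at 54 and K261E of Pgd at 51, and P452T of Masp2 the lowest at 15. Of the 43, 5 were also in the marrow list of the same animal and 0 in its ear list. The calls of the 2 tools thus lay in different parts of the chromosome end. The middle also held most of its RefSeq coding genes, 130 against 15 and 13 in the stretches before and after it. The positions of the calls were not tested against this.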

How the data were processed

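Genomic DNA had been captured with Agilent SureSelect Mouse Exon baits and sequenced on an Illumina instrument, per the labels. FastQC, Bowtie2, SAMtools, GRCm38 and mm9 stand in the submitters' processing notes, without their roles. Reference bases of 1182 of 1182 single nucleotide sites in RefSeq promoter windows matched GRCm38.p6. Per the file headers, the authors listed SAMtools calls with SnpEff annotation, mapping quality, depth, genotype and counts of reference and variant reads by strand (DP4), and p-values for read biases. Their VarScan2 lists hold deposited read counts and a p-value per call, and their Strelka lists a deposited quality score. How these callers filtered is not given in the sources used here. VarScan2 fractions were closest to those of the labelled marrow at 1680 of 1683 sites and of the labelled ear at 663 of 689.

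A site's variant fraction is its variant reads over reference plus variant reads, and a site counted as homozygous where both tissues had a homozygous variant genotype. Marrow and ear were paired by animal, as the labels give them, and the deviations of paired samples correlated at 0.124, 0.155 and 0.0949 over 4679 sites called in all 6 samples. Over the 130 such members they correlated at -0.207, -0.0852 and 0.0389, and the marrow of animal 108 with the ear of animal 54 at 0.306. Fisher's exact test per animal and the Cochran-Mantel-Haenszel test, stratified by animal, were two-sided, used sites with at least 10 reads in each sample, and were adjusted by Benjamini-Hochberg over all sites of the genome (threshold 0.05). Class means were tested over animals by an exact two-sided sign-flip permutation test, whose smallest p is 0.25 with 3 animals. On simulated data with 200 shifted sites, Fisher's test recovered 63.5%, 61.0% and 55.0% of shifts of 0.4 in fraction over the sites of animals 54, 108 and 136, with 6, 4 and 1 false calls. The Cochran-Mantel-Haenszel test recovered 58.0% of shifts of 0.2 over 4444 sites, with 2 false calls. Depths of members are given beside the values, intervals are 95% Clopper-Pearson, which cover counting error only, since reads carried no molecular identifier.

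The members, gene lists and tests were chosen with earlier results of these data known, and the comparisons of depth, base changes, neighbouring sites and promoters were added later. Named are genes with a HIGH impact site in all 3 animals, the 10 genes with the most protein-altering sites at MQ 30 or above, the 10 with the most sites below MQ 30, list genes with a protein-altering site, sites past a test and genes with a protein-altering somatic call. Only 5 genes met the second of these. Camta1, Agrn, Chd5, Rere, Slc45a1, Gm15951, Plod1, Plch2 155002691, Trp73 introns, Gm13141, Morn1, Gm10564, Mrpl20, Rps19-ps3 and the Pgd promoter were named after their values were seen. Of 56 gene names, 45 had a RefSeq entry. Promoter copies were found with BLAST 2.17.0, and the rest was computed with Python 3.11.15, numpy 2.4.6, scipy 1.17.1, pandas 2.3.3 and matplotlib 3.10.9.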

Additional observations from a re-analysis of the deposited data

How the results depend on the processing

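No call changed side of its threshold under the settings tried: 0 sites differed between marrow and ear with at least 20 reads, at MQ 30 or above alone, without any 1 animal, or with no replicate block. The number of sites per animal at MQ 30 or above, a mean of 120.3 with 75.7 below, became 191.7 and 4.33 with an MQ limit of 20, and 21.3 and 174.7 with a limit of 40. Among sites called in all 3 animals it was 79. With the limit of 20, which leaves few sites below, the fraction by class became -15.9 points and the homozygous share by class -27.4 points, and among single nucleotide sites alone that share difference was -3.07. The homozygous share at MQ 30 or above minus below changed sign to 1.23 points with at least 20 reads, to 5.70 with a known reference base and to 9.44 when the highest MQ set the class, the last 2 settings chosen after seeing the data. The marrow minus ear fraction at MQ 30 or above changed sign to 0.599 points with a limit of 40 and to 0.204 with at least 20 reads. The cause of these changes of sign was not tested.

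Leaving out 1 animal gave -8.05 to -5.78 points for the fraction by class, -2.57 to -0.796 for the homozygous share, 4.24 to 6.43 for that share against the rest of the genome, and -0.751 to -0.0903 for marrow minus ear at MQ 30 or above. Below MQ 30 marrow minus ear ran from -1.24 to 0.418, positive without animal 136. Site counts ran from 115.5 to 125 at MQ 30 or above and from 73.5 to 78 below. With no replicate block, the pairing of tissues by animal being ignored, the exact permutation p of marrow minus ear was 0.8 at MQ 30 or above (-0.343 points) and 0.7 below (-0.360 points). With 3 animals the exact p of a class difference cannot fall below 0.25, and low depth from 148 to 156 Mb limits what single sites there can show.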
